A study of Mus musculus with 12 samples.

Results

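The cyclic nucleotide phosphodiesterase genes Pde3a, Pde3b, Pde4a, Pde4b, Pde4c, Pde4d, Pde7a, Pde7b, Pde8a and Pde10a were followed through β-adrenergic stimulation of mouse white adipocytes with and without inhibition of the lipases. They were chosen by gene symbol, with earlier results of these data known, and these 10 genes are among 20295 in the count table. Of the 10, 9 passed the filter on low counts and were tested. Pde4c did not, and is given by its counts alone.

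Phosphodiesterases hydrolyse the second messengers cAMP and cGMP and so set how long a hormone signal lasts inside the cell. The PDE4, PDE7 and PDE8 enzymes are specific for cAMP, while PDE3 and PDE10 enzymes take both nucleotides. In white fat cells, catecholamines raise cAMP through β-adrenergic receptors, protein kinase A then activates the lipases, and insulin opposes lipolysis in part by activating PDE3B through the kinase AKT.

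RNA sequencing was performed on 12 libraries of mature adipocytes that were floated from collagenase-digested epididymal fat of lean male C57/BL6J mice and held in a 3D hydrogel for 2 days. There were 4 groups with 3 libraries each. DMSO is the group without either drug. ISO cells were stimulated for 3 h with isoproterenol, an agonist of the β-adrenergic receptors. In Lip the lipases ATGL and HSL were blocked with inhibitors, and in Lip+ISO the same block preceded 3 h of ISO. The cells carried no transgene, the ages of the mice and the number pooled per library were not given in the sources used here, and floating does not remove every other cell type. The study describes its replicates as biologically independent experiments, while the labels do not say which cultures or animals a library came from or whether a replicate number marks the same experiment in every group. The p-values measure the spread between these libraries.

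Library totals ran from 22632220 to 43707557 counts, so a value of 3 counts, taken as the limit that a count of 0 allows, lay between 0.0678 and 0.132 CPM (counts scaled to the TMM-adjusted library size) across the libraries. Such limits cover counting error only. The 8 adipocyte markers (Adipoq, Plin1, Lipe, Fabp4, Cidec, Lep, Pparg and Pnpla2) summed to 23000 to 35800 CPM per library, against 44.2 to 402 CPM for 6 endothelial markers and 46.3 to 152 CPM for 6 macrophage markers. No adipocyte marker was at 0 in all libraries of a group. Lip replicate 3 lay apart from the other libraries on the third principal component, and without it the counts of tested phosphodiesterases that changed in each comparison stayed as given here (6 higher and 1 lower for ISO against DMSO, 6 higher for Lip+ISO against Lip, 3 higher for Lip+ISO against ISO).

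Before stimulation, Pde3b was by far the most abundant of the 10 mRNAs. On the scale of CPM per kilobase of counted length, which allows genes to be compared with each other, its mean level in DMSO was 84.2, above 93.3% of all tested genes. Pde8a followed at 4.27, Pde4d at 3.17 and Pde7a at 2.85, with the libraries of the latter 2 genes overlapping. The remaining genes lay between 1.29 (Pde3a) and 0.367 (Pde7b) CPM per kilobase, and each neighbouring pair in that range overlapped. Pde4c had 0, 5 and 0 counts in the DMSO libraries. Other phosphodiesterases also contributed: Pde2a, the cGMP-stimulated enzyme, had a mean level of 17.6 CPM per kilobase in DMSO and the calmodulin-dependent Pde1b one of 9.35.

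The comparison of ISO with DMSO asks how the agonist changes these genes while the lipases are active. Of the 9 tested genes, 6 rose (Pde4d, Pde4b, Pde10a, Pde7b, Pde3a and Pde8a) and 1, Pde7a, fell (edgeR's quasi-likelihood test with a Benjamini-Hochberg adjusted p of at most 0.05). Over all 13543 tested genes, 12.3% rose and 13.9% fell in this comparison. Their median log2 fold change was 1.30, against 0.00 for all tested genes. With the lipases inhibited (Lip+ISO against Lip), 6 of the 9 rose and 0 fell, where 11.5% of all tested genes rose and 15.8% fell. At an unadjusted p under 0.05 the number that fell was also 0, as it was by DESeq2. Of all 13543 tested genes, 4970 had such a p in either direction. The 2 comparisons share no library but come from 1 fit, and 5 genes (Pde4d, Pde4b, Pde10a, Pde7b and Pde8a) rose in both. How many of all tested genes rose in both was not counted, so nothing is read from this overlap. The genes were chosen with earlier results of these data known, so the counts and the median describe the chosen genes alone. Of 7 other tested phosphodiesterases, 0 rose and 0 fell in either comparison. No test of the chosen genes as a set was made. In these bulk samples, fewer cells of a type and less RNA per cell cannot be told apart.

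**Figure D1:**
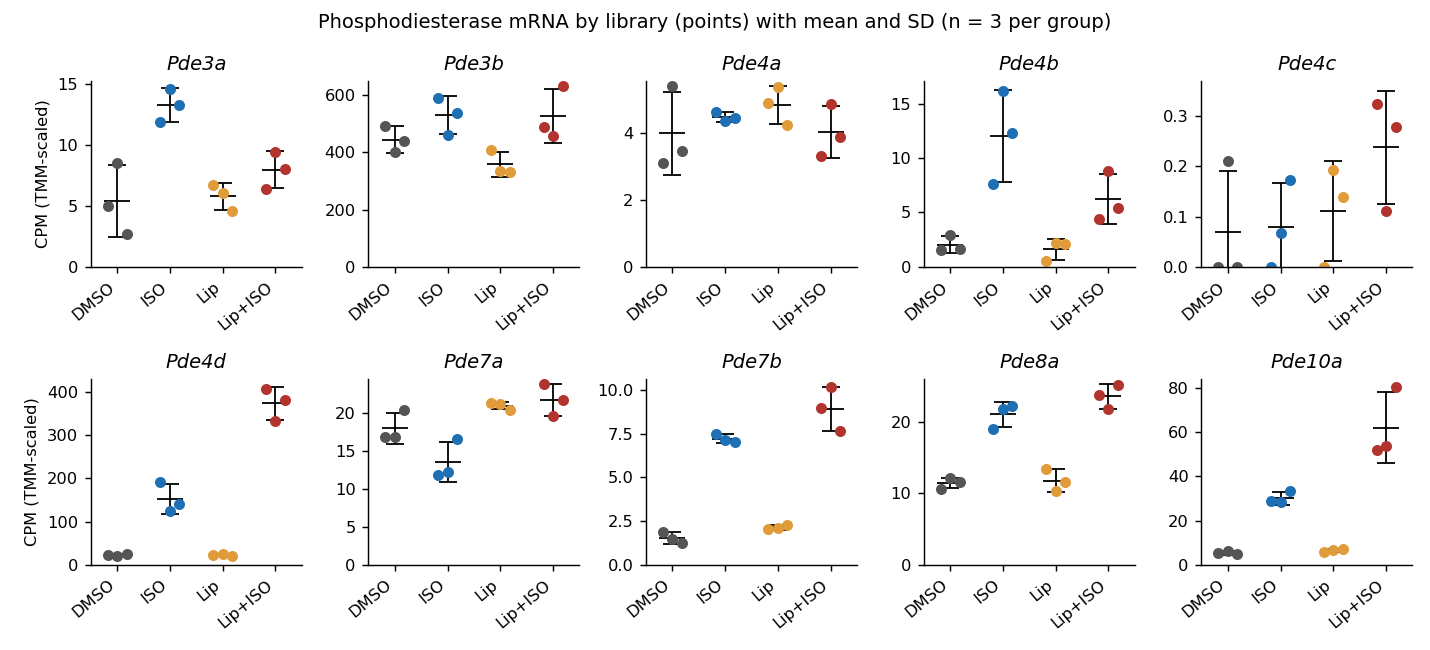
Expression of the 10 phosphodiesterase genes in each of the 12 libraries, in CPM scaled by TMM on a linear axis from 0 (points, ordered by replicate number), with the mean (long dash) and SD (bars) of the 3 libraries of each group. Pde4d, Pde4b, Pde10a, Pde7b and Pde8a are higher in all 6 libraries with ISO than in all 6 without it, and Pde4d and Pde10a are highest in Lip+ISO.

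Within the PDE3 family, Pde3b (NM_011055, mm9 chromosome 7, 121558768 to 121681451, plus strand), which encodes the membrane-bound enzyme that insulin activates in fat cells, had 493.5, 401.4 and 439.5 CPM in the 3 DMSO libraries and 591.6, 459.2 and 537.3 CPM in ISO. These groups overlapped, and the log2 fold change of 0.25 (95% interval -0.05 to 0.55) did not pass the test (edgeR adjusted p = 0.203). In Lip the values were 408.9, 336.5 and 330.9 CPM and in Lip+ISO 489.0, 457.7 and 633.3 CPM, so that every Lip+ISO library lay above every Lip library. Here Pde3b rose 1.47-fold (log2 fold change 0.55 ± 0.14 SE, edgeR adjusted p = 0.00978). Without replicate 3 of each group this was 0.34 (edgeR adjusted p = 0.188) and no longer passed. The difference between both responses, 0.30 on the log2 scale, was not past the threshold (edgeR adjusted p = 0.553).

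Pde3a (NM_018779, chromosome 6, 141197790 to 141447872, plus strand), the PDE3 form known best from heart, vessels and oocytes, had 5.02, 8.52 and 2.70 CPM in DMSO and 11.9, 14.6 and 13.3 CPM in ISO. All ISO libraries lay above all DMSO libraries, though DMSO replicate 3 was much lower than DMSO replicate 2. The rise was 2.46-fold (log2 fold change 1.30 ± 0.31 SE, edgeR adjusted p = 0.00935), and it did not pass without replicate 1 (1.32, edgeR adjusted p = 0.0655) or without replicate 3 of each group (0.98, edgeR adjusted p = 0.063). With the inhibitors, Pde3a had 6.73, 6.05 and 4.60 CPM in Lip and 6.43, 9.45 and 8.02 CPM in Lip+ISO. These groups overlapped and the log2 fold change was 0.46 (95% interval -0.21 to 1.14, edgeR adjusted p = 0.32).

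Of the PDE4 family, Pde4d (NM_011056, chromosome 13, 109444371 to 110746177, plus strand) encodes a cAMP-specific enzyme with long and short isoforms, of which short ones are known to be made from internal promoters that respond to cAMP. It had 22.3, 20.5 and 24.3 CPM in DMSO and 191.6, 125.3 and 141.3 CPM in ISO. In Lip it had 21.4, 23.8 and 20.8 CPM and in Lip+ISO 407.1, 333.2 and 381.4 CPM. The 6 libraries without ISO were nearly alike, every ISO library was far above them, and every Lip+ISO library was above every ISO library. The rise was 6.83-fold without inhibitors (log2 fold change 2.77 ± 0.15 SE, edgeR adjusted p = 1.02e-07) and 17.0-fold with them (4.09 ± 0.16, edgeR adjusted p = 2.79e-09). On the scale per kilobase, its mean level moved from 3.17 to 21.7 and from 3.12 to 53.0 CPM, which is from above 35.1% to above 74.4% and from above 34.4% to above 88.1% of the tested genes.

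Pde4b (NM_019840, chromosome 4, 101927544 to 102279867, plus strand), a cAMP-specific enzyme best known from leukocytes and brain, had 1.58, 2.98 and 1.61 CPM in DMSO and 7.62, 16.1 and 12.3 CPM in ISO. With inhibitors it had 0.515, 2.22 and 2.08 CPM in Lip and 4.45, 8.78 and 5.40 CPM in Lip+ISO. Libraries with ISO lay above those without it in both comparisons, but they spread widely within each group. The rise was 5.90-fold in ISO (a log2 fold change of 2.56 ± 0.47 SE with an edgeR adjusted p of 0.00157) and 3.84-fold in Lip+ISO (1.94 ± 0.47, edgeR adjusted p = 0.00741), the latter not past the threshold without replicate 3 of each group (2.26, edgeR adjusted p = 0.0534).

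Pde4a (NM_183408, chromosome 9, 20970158 to 21017692, plus strand), the third cAMP-specific gene of this family, did not pass the test in any comparison. It had between 3.10 and 5.41 CPM across all 12 libraries, with log2 fold changes of 0.17 in ISO (95% interval -0.33 to 0.67) and -0.26 in Lip+ISO against Lip (-0.76 to 0.24). Pde4c (NM_201607, chromosome 8, 73247963 to 73275075, plus strand) had 41 counts in all libraries together. There were 0, 3 and 4 counts in ISO, 0, 6 and 5 in Lip and 8, 3 and 7 in Lip+ISO, which is too few for a fold change.

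Both PDE7 genes encode cAMP-specific enzymes. Pde7a (NM_001122759, chromosome 3, 19123109 to 19211322, minus strand) had 16.8, 16.7 and 20.3 CPM in DMSO and 11.9, 12.2 and 16.5 CPM in ISO. Each ISO library lay below each DMSO library, the closest pair being 16.5 and 16.7. The log2 fold change was -0.41 ± 0.14 SE (edgeR adjusted p = 0.0414), close to the threshold, and it did not pass in 8 of 15 fits that left out libraries (-0.32 without DMSO replicate 3, edgeR adjusted p = 0.165). In Lip the values were 21.2, 21.2 and 20.3 CPM and in Lip+ISO 23.8, 19.5 and 21.6 CPM, overlapping, with a log2 fold change of 0.05 (95% interval -0.24 to 0.34, edgeR adjusted p = 0.833).

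Pde7b (NM_013875, chromosome 10, 20117810 to 20444874, minus strand) was the least abundant of the tested genes in DMSO, at 1.86, 1.47 and 1.21 CPM, and had 7.49, 7.12 and 7.01 CPM in ISO. In Lip it had 2.03, 2.09 and 2.27 CPM and in Lip+ISO 8.98, 10.2 and 7.63 CPM. Libraries with and without ISO were far apart. The rise was 4.72-fold (log2 fold change 2.24 ± 0.20 SE, edgeR adjusted p = 5e-06) and, with inhibitors, 4.18-fold (2.06 ± 0.19, edgeR adjusted p = 4.5e-06).

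Pde8a (NM_008803, chromosome 7, 88358690 to 88478508, plus strand), which encodes a cAMP-specific enzyme of high affinity, had 10.7, 12.1 and 11.6 CPM in DMSO, 19.1, 21.8 and 22.3 CPM in ISO, 13.5, 10.3 and 11.6 CPM in Lip and 23.7, 21.8 and 25.2 CPM in Lip+ISO. The libraries with ISO again lay above all those without. It rose 1.84-fold (log2 fold change 0.88 ± 0.12 SE, edgeR adjusted p = 0.000194) and, with inhibitors, 2.00-fold (1.00 ± 0.12, edgeR adjusted p = 3.95e-05).

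Pde10a (NM_001290707, chromosome 17, 8719666 to 9179513, plus strand), which encodes an enzyme for cAMP and cGMP that is best known from the striatum, had 5.09, 6.21 and 4.78 CPM in DMSO and 28.7, 28.2 and 33.6 CPM in ISO. In Lip it had 5.74, 6.66 and 7.14 CPM and in Lip+ISO 52.1, 53.8 and 80.5 CPM. As for Pde4d, Lip+ISO lay above ISO in every library, and Lip+ISO replicate 3 was the highest. The rise was 5.64-fold (log2 fold change 2.49 ± 0.18 SE, edgeR adjusted p = 9.97e-07) and, with inhibitors, 9.51-fold (3.25 ± 0.18, edgeR adjusted p = 4.83e-08).

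**Figure D2:**
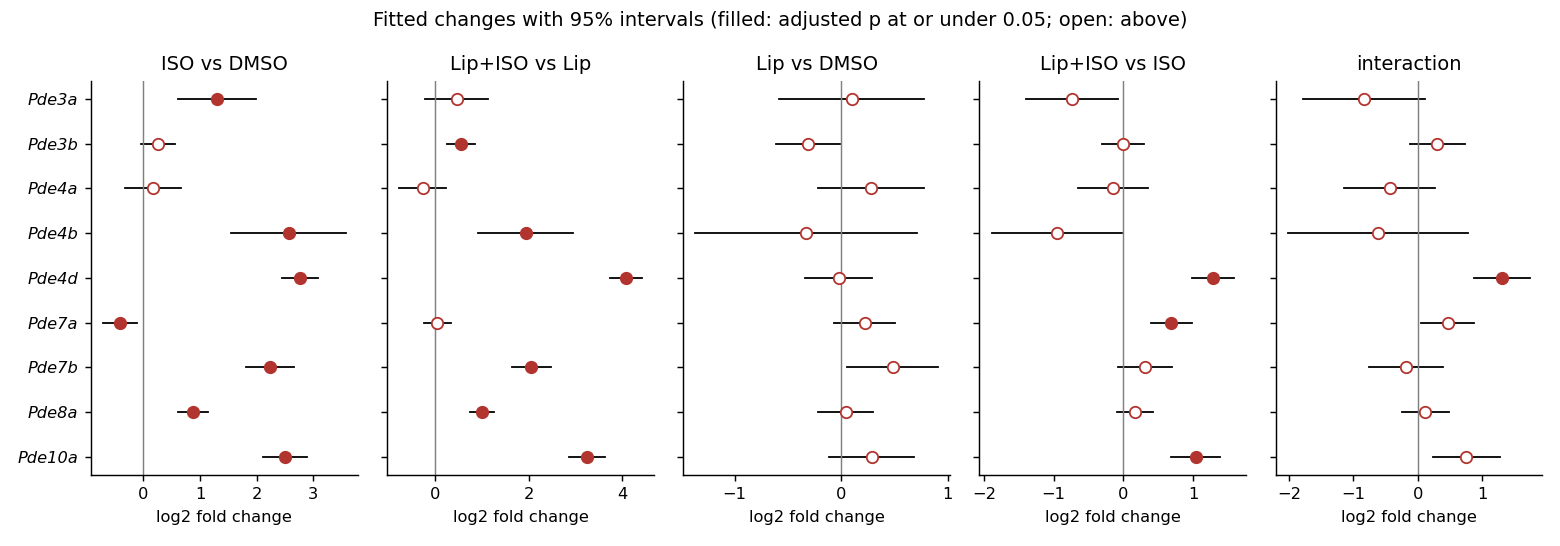
Fitted log2 fold changes (points) of the 9 tested genes with 95% intervals (lines) in each of the 5 contrasts, with the interaction being the ISO response under inhibitors less the one in their absence; filled points have an edgeR adjusted p at or under 0.05. The horizontal scale differs between panels. Both panels of ISO responses hold 6 filled points above 0, Lip against DMSO holds 0 filled points, and the interaction holds 1, Pde4d.

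The make-up of the summed mRNA of the 10 genes differed between the groups. Other phosphodiesterases are outside this sum, among them Pde2a (17.6 CPM per kilobase in DMSO and 14.5 in Lip+ISO) and Pde1b (9.35 and 7.37). The shares below would be smaller if these were counted in. The summed level of the 10 genes was 98.1 ± 7.78 CPM per kilobase in DMSO (SD, n = 3), 144 ± 15.5 in ISO, 82.9 ± 8.62 in Lip and 179 ± 21.9 in Lip+ISO. The PDE4 family held 4.64% ± 0.677 of that sum in DMSO, 17.6% ± 1.20 in ISO, 5.56% ± 0.980 in Lip and 31.1% ± 3.17 in Lip+ISO. The PDE3 family held 87.0%, 71.5%, 83.5% and 56.4% in the same order. The ratio of Pde3b to Pde4d per kilobase was 29.5, 26.1 and 24.1 in the DMSO libraries, 4.12, 4.89 and 5.07 in ISO, 25.4, 18.8 and 21.2 in Lip and 1.60, 1.83 and 2.21 in Lip+ISO. Groups with ISO did not overlap those without it, and Lip+ISO did not overlap ISO. Shares depend on the length by which counts are divided, and with the transcript span in place of the counted length the PDE4 share was 2.74%, 4.96%, 3.74% and 7.58%.

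**Figure D3:**
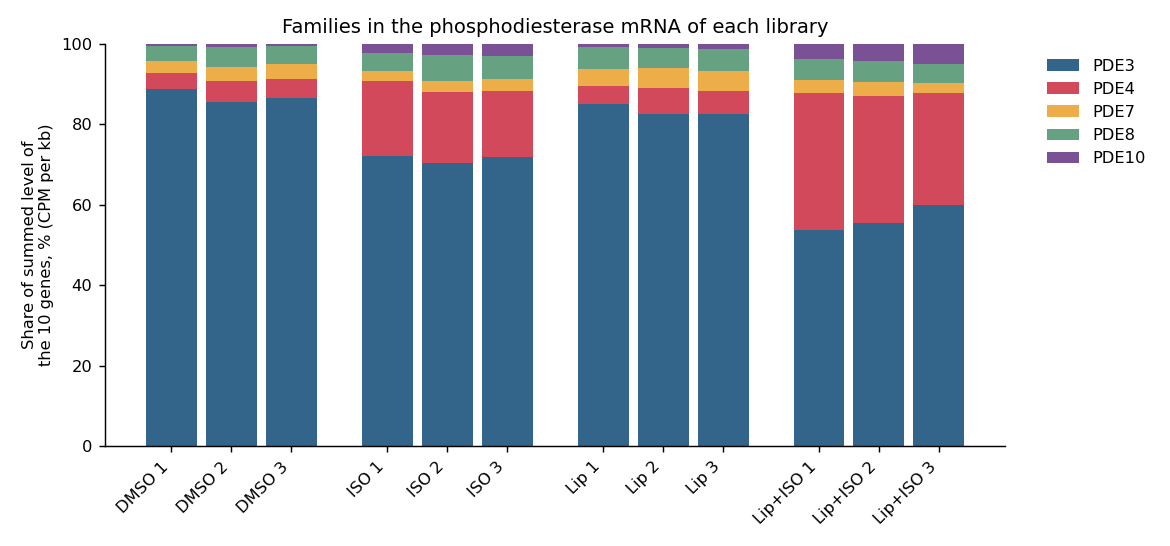
Share of each family in the summed level (CPM per kilobase of counted length, in %) of the 10 phosphodiesterase genes, as 1 stacked bar per library that adds to 100%. PDE3 holds 82.6% to 88.8% in the 6 libraries without ISO, 70.5% to 72.1% in ISO and 53.7% to 60.0% in Lip+ISO, while the PDE4 part grows from at most 6.48% to 34.0%.

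The order of the levels per kilobase changed as well. In ISO, Pde3b (100.1 CPM per kilobase) was followed by Pde4d (21.7), Pde8a (7.85) and Pde10a (3.89), none of which overlapped its neighbour. In Lip+ISO the order of the first 4 was the same, with Pde8a (8.79) and Pde10a (8.0) overlapping. In Lip, Pde3b (67.9) led Pde8a (4.39), Pde7a (3.32) and Pde4d (3.12), of which the last 2 overlapped, much as in DMSO.

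To ask how the inhibitors bear on the level under the agonist, Lip+ISO was compared with ISO. Of the 9 genes, 3 rose (Pde4d, Pde10a and Pde7a), where 4.36% of all tested genes rose. None fell in the main fit (0 of 9 by edgeR and 0 by DESeq2), where 4.59% of all tested genes fell. At an unadjusted p under 0.05, 2 were lower (Pde3a and Pde4b). In either direction, 5 of the 9 and 3230 of all 13543 tested genes had such a p. With the replicate number as a block in the fit, Pde4b was lower (-0.94, edgeR adjusted p = 0.0171). Pde4d was 2.45-fold higher (log2 fold change 1.29 ± 0.14 SE, edgeR adjusted p = 9.72e-05) and Pde10a 2.06-fold higher (1.04 ± 0.16, edgeR adjusted p = 0.0016). Pde7a, which was lower in ISO than in DMSO, was 1.61-fold higher in Lip+ISO than in ISO (0.68 ± 0.14, edgeR adjusted p = 0.00735), and this did not pass without replicate 1 (0.54, edgeR adjusted p = 0.0971) or without replicate 2 of each group (0.68, edgeR adjusted p = 0.0976). This comparison and that of ISO with DMSO share the ISO libraries, so a chance deviation in ISO enters both with opposite sign.

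The other genes did not pass in Lip+ISO against ISO in the main fit, which has no replicate block. Pde3a had a log2 fold change of -0.73 (95% interval -1.40 to -0.07, edgeR adjusted p = 0.169) and Pde4b one of -0.96 (-1.89 to -0.02, edgeR adjusted p = 0.202), with the libraries of Pde3a separate and those of Pde4b overlapping. Pde7b (0.31, -0.08 to 0.70), Pde8a (0.16, -0.09 to 0.42), Pde3b (-0.01, -0.31 to 0.29) and Pde4a (-0.15, -0.65 to 0.35) had intervals that include 0.

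Whether the response to ISO itself differed with the inhibitors was tested by the interaction. Pde4d passed, with a log2 difference of 1.31 ± 0.20 SE (edgeR adjusted p = 0.00501). At the same threshold a positive difference was called for 0.901% of all tested genes and a negative one for 0.724%, whatever the direction of their response. Pde4d passed in 13 of 15 fits that left out libraries. It did not pass without replicate 2 (1.39, edgeR adjusted p = 0.0682) or without replicate 3 of each group (1.14, edgeR adjusted p = 0.218). None of the 9 genes had a negative difference past the threshold (0 by edgeR, 0 by DESeq2 and 0 at an unadjusted p under 0.05). In either direction, 3 of the 9 and 1868 of all 13543 tested genes had an unadjusted p under 0.05. Pde10a had a log2 difference of 0.76 (95% interval 0.23 to 1.28, edgeR adjusted p = 0.168), Pde3a one of -0.83 and Pde4b one of -0.62, and these did not pass. With the replicate number as a block in the fit, Pde10a did pass (0.75, edgeR adjusted p = 0.0456).

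**Figure D4:**
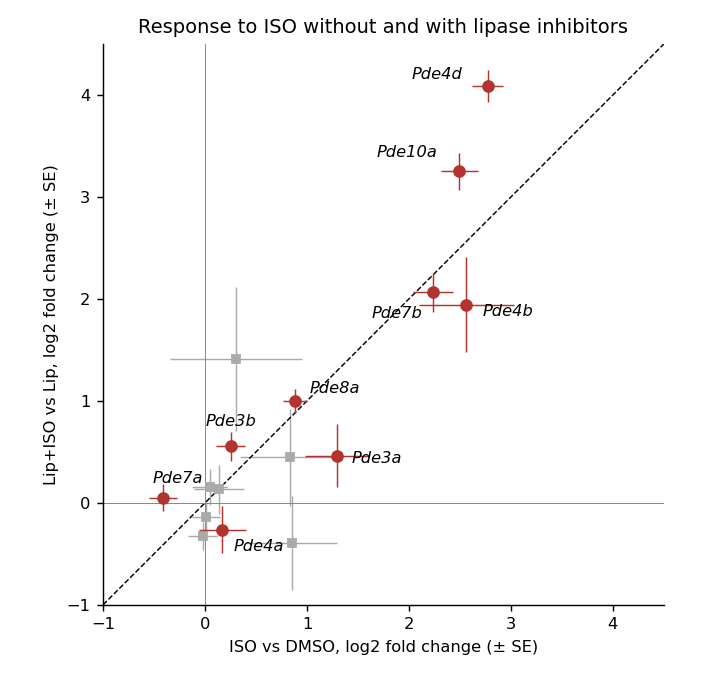
Response to ISO without inhibitors (horizontal) against that with inhibitors (vertical), as log2 fold changes with SE bars, for the 9 tested genes (red, named) and 7 other tested phosphodiesterases (grey squares); the dashed line marks equal responses. The 2 axes share no library. Pde4d lies 1.31 above the line and Pde10a 0.76 above it, while Pde7b and Pde8a lie close to it. Pde3a (-0.83) and Pde4b (-0.62) lie below it. Of these differences, only that of Pde4d passed in the main fit.

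No change of these genes was called with the inhibitors alone. In Lip against DMSO, 0 of the 9 rose and 0 fell, where 0.00738% of all tested genes rose and 0.0443% fell (edgeR, every adjusted p of the 9 genes was 1). DESeq2 also called 0. Of all 13543 tested genes, 582 had an unadjusted p under 0.05, as did 2 of the 9. These were Pde7b, with a log2 fold change of 0.48 (95% interval 0.05 to 0.91) and separate libraries, and Pde3b, with -0.31 (-0.61 to -0.01) and overlapping libraries. Pde7a had separate libraries too, at a log2 fold change of 0.22 (-0.07 to 0.51).

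Further phosphodiesterases were read in the same fit, and a difference between them and the 10 was not tested. Of 11 further phosphodiesterase genes, 7 were tested (Pde1a, Pde1b, Pde2a, Pde5a, Pde8b, Pde9a and Pde11a), and 0 passed in any of the 5 contrasts by edgeR or by DESeq2. At an unadjusted p under 0.05, 0 did so in ISO against DMSO, 1 in Lip+ISO against Lip (Pde2a, log2 fold change -0.33) and 2 in Lip+ISO against ISO (Pde1b, -0.36, and Pde11a, -1.04). Of all 13543 tested genes, 5262, 4970 and 3230 did so in the same order, in either direction. The more abundant ones had narrow intervals in ISO against DMSO, with a log2 fold change of -0.02 (95% interval -0.33 to 0.28) for Pde2a, 0.01 (-0.28 to 0.31) for Pde1b and 0.04 (-0.33 to 0.42) for Pde1a. Those of the rarer Pde5a (0.14), Pde8b (0.83), Pde9a (0.30) and Pde11a (0.85) were wide.

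The genes that make, read and respond to cAMP give the setting of these changes. Of 12 known targets of the cAMP-responsive factor CREB, 11 rose in ISO against DMSO and 0 fell, led by the nuclear receptors Nr4a3 (log2 fold change 6.72), Nr4a2 (4.46) and Nr4a1 (4.42). Of 14 tested genes of cAMP production, 2 rose, the adenylyl cyclases Adcy3 (1.41) and Adcy7 (1.21), and 3 fell, the β-adrenergic receptors Adrb3 (-2.67) and Adrb1 (-1.43) and the cyclase Adcy6 (-0.60). Of 10 tested genes that read cAMP, the regulatory kinase A subunit Prkar1a rose (0.49) and the kinase A inhibitor Pkia fell (-0.61). Of 7 genes of cGMP production and reading, the kinase Prkg2 rose (1.60) and the natriuretic peptide receptor Npr2 fell (-0.53). All these calls are by edgeR at an adjusted p at or under 0.05, at which 12.3% of all tested genes rose and 13.9% fell. The counts for making and reading cAMP and for cGMP rest on few members each and are given as a description, with nothing read from them about the lists.

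The partners of the enzymes and insulin signalling are described in the same way, against the same shares of all tested genes. Of 13 tested genes in a list of binding or anchoring partners of phosphodiesterases and related kinase subunits, 2 rose in ISO. They were the kinase subunit Pik3r5 (log2 fold change 1.07) and Gnb2l1 (0.37), the scaffold RACK1. In the same list 4 fell, of which the largest changes were those of the anchor Pde4dip (-0.68), of Abhd15 (-0.58), a protein that stabilises PDE3B in fat cells, and of the anchor Akap7 (-0.54). Of 9 genes from the insulin receptor to AKT, the substrate Irs2 rose (1.17) and the kinase subunit Pik3r1 (-1.79) and the receptor Insr (-0.52) fell. In Lip+ISO against ISO, 4.36% of all tested genes rose and 4.59% fell. There 0 partners passed by edgeR (1 fell by DESeq2). At an unadjusted p under 0.05 there were 2 partners, and 3230 of all 13543 tested genes. The kinase subunit Pik3cb (-0.61) and the cyclases Adcy9 (-0.77) and Adcy6 (-0.45) fell. Of the CREB targets, Crem rose (1.01) while Fos (-1.46) and Pck1 (-1.11) fell.

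The genes with the most similar pattern over the 12 libraries were sought for the 3 members with the largest change in ISO, by the root mean square difference of log2 CPM after each gene was centred on its own mean. For Pde4d these were Crem (0.185), a cAMP-responsive transcription factor, the ubiquitin protease Usp2 (0.28) and the cytokine signalling inhibitor Socs3 (0.29). Crem had 15.0 ± 0.223 CPM in DMSO (SD, n = 3), 108 ± 10.1 in ISO, 15.8 ± 2.04 in Lip and 218 ± 13.3 in Lip+ISO. For Pde10a they were Alpl (0.215), Ugdh (0.217) and Wfdc12 (0.246). For Pde4b they were less alike, Cldn5 (0.493), Kcnj8 (0.494) and Stc1 (0.498), and Cldn5, an endothelial tight junction protein, is one of the endothelial markers.

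Markers of other cell types moved with some of the groups, and they are given because Pde4b and Pde3a are also expressed outside fat cells. The 6 endothelial markers summed to 89.2 to 174 CPM in DMSO, 222 to 402 in ISO, 44.2 to 156 in Lip and 72.2 to 213 in Lip+ISO. The 6 macrophage markers summed to 46.3 to 61.3, 101 to 152, 49.4 to 56.7 and 63.6 to 112 CPM in the same order. In ISO against DMSO, 1 of the 6 endothelial markers (Cldn5) and 5 of the 6 macrophage markers rose (edgeR adjusted p at or under 0.05), as did 3 of 6 fibroblast, 1 of 5 mesothelial, 0 of 6 smooth muscle and 1 of 2 tested lymphocyte markers, where 12.3% of all tested genes rose, and no marker of these lists was at 0 in all libraries of a group. In Lip+ISO against ISO, 3 of 6 fibroblast markers (Col1a1, Col3a1 and Pdgfra) and Cldn5 fell, where 4.59% of all tested genes fell, and the fibroblast sum was 317 to 563 CPM in DMSO, 631 to 834 in ISO, 435 to 443 in Lip and 377 to 522 in Lip+ISO. The mesothelial sum was 21.0 to 46.8 CPM in DMSO, 55.4 to 65.9 in ISO, 12.8 to 54.7 in Lip and 37.3 to 46.2 in Lip+ISO. The 3 ISO libraries were highest in the endothelial, fibroblast and mesothelial sums, in Pde3a and, for 2 of them, in Pde4b. They were not all highest in the macrophage, smooth muscle and lymphocyte sums. The part of other cell types in the values of Pde4b and Pde3a was not tested.

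**Figure D5:**
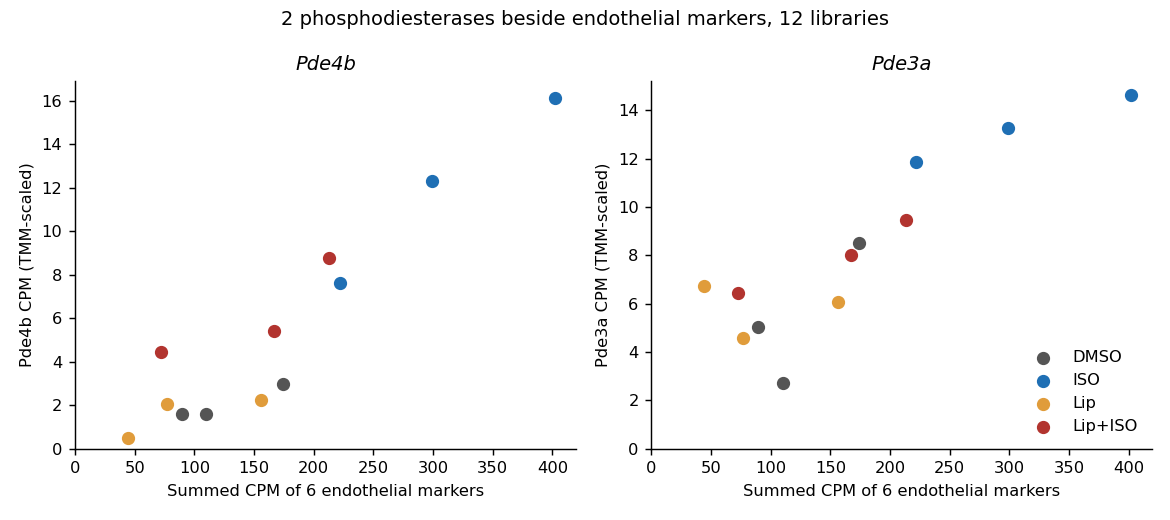
Expression of Pde4b (left) and Pde3a (right) in CPM against the summed CPM of 6 endothelial markers in the same library, both on linear axes from 0, with 1 point per library coloured by group. The sum includes Cldn5, which was found in these same libraries as the gene most similar to Pde4b. The 3 ISO libraries have the highest sums (222 to 402 CPM), and Pde4b in Lip+ISO (4.45 to 8.78 CPM) lies above Pde4b in DMSO and Lip at marker sums of 72.2 to 213 CPM.

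The start regions of the genes that rose in both comparisons are shown because cAMP acts on many promoters through the cAMP response element. RefSeq promoter windows (GRCm38.p6, 250 bases before to 50 after a start site) were given for 7 of the 10 genes, 13 windows in all, and not for Pde3a, Pde3b and Pde7a. Printed here are the 250 bases before the start, 5′ to 3′, for the window of each gene that lies first along the gene, with the shorter core TGACG of the element in capitals on either strand (CGTCA where it lies on the other strand).
Pde4d (chr13:108653927-108654176, plus strand): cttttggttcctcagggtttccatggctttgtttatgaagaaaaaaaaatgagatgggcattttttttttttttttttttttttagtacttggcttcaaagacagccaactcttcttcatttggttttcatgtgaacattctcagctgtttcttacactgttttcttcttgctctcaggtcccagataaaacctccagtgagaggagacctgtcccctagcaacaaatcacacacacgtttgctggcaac
Pde4b (chr4:102421305-102421554, plus strand): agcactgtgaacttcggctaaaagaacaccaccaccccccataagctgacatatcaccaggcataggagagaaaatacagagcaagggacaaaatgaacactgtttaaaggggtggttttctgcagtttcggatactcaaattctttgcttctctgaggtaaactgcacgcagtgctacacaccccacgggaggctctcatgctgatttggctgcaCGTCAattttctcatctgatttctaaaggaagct
Pde7b (chr10:20548329-20548578, minus strand): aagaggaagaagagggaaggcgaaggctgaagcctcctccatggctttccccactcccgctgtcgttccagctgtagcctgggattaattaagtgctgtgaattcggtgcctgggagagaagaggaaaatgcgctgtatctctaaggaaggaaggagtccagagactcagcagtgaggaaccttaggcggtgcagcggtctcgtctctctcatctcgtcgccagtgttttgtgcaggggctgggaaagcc
Pde8a (chr7:81213015-81213264, plus strand): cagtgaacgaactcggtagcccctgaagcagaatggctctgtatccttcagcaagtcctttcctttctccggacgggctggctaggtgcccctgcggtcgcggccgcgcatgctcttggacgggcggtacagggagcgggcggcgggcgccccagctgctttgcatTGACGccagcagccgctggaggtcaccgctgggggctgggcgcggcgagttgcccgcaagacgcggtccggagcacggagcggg
Pde10a (chr17:8801495-8801744, plus strand): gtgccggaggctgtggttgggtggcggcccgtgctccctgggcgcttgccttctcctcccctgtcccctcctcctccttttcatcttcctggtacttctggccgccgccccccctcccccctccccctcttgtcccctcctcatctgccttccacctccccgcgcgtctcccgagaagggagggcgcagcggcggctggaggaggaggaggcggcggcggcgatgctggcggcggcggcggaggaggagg

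The whole element, TGACGTCA, searched on both strands, was in 0 of the 13 windows and in 1.79% of all 32851 windows of the same length. The core TGACG, which the whole element also contains, was in 3 of the 13 (23.1%) and in 20.8% of all windows. It stood in Pde4b at -34 on the minus strand and in Pde8a at -84 on the plus strand, both in capitals above, and in a further window of Pde4a at -50. Pde4d, with the largest rise, held neither in its window. A match is a description of letters and not a site, and no match says only that these letters are absent from these windows.

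These windows do not cover all starts of the genes. The windows were matched exactly to the mm9 genome of the counts. The start site of the Pde4d window is the one that was counted, and that of the Pde8a window lies at -539 bases from its counted start. Those of the printed windows of Pde4b, Pde7b and Pde10a lie 166616, 176740 and 274944 bases into the gene. The GENCODE annotation of mm9 lists 12 start sites of coding transcripts for Pde4d, 9 each for Pde4b and Pde10a, 4 for Pde7b and 1 each for Pde8a and Pde3b. The counts are summed per gene, so the isoform behind a rise cannot be told apart.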

How the data were processed

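Values in the deposited table are counts of reads per gene and library without normalization. To make them, the authors aligned the reads to mm9 with STAR 2.4.2a, summarised tags per gene with HOMER (1 read per position and length) and counted reads per RefSeq gene with iRNA-seq. Whether strand was used was not given in the sources used here; no member overlaps another gene in the table. Groups and replicate numbers came from the sample titles, which name ISO as the stimulus; a legend of the study names SR-3420. Lengths of the counted part and of the transcript span were used as deposited.

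Counts were tested in R 4.3.3 with edgeR 4.0.16 (filterByExpr, 13543 genes kept; TMM factors 0.924 to 1.07; a quasi-likelihood model of 4 group means over all 12 libraries; two-sided F-test; Benjamini-Hochberg adjustment over all tested genes; changed at an adjusted p at or under 0.05). CPM were TMM-scaled. DESeq2 1.42.0 and the other settings in the closing section were alternatives. The depth of 22632220 to 43707557 counts per library limits rare genes such as Pde4c. For gene lists beside the 10, genes past the threshold in ISO against DMSO or Lip+ISO against ISO were named, at most 3 per list and direction by size, with every other tested phosphodiesterase. The members and lists were chosen with earlier results of these data known. No set test was run, and protein sequences were not used here.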

Additional observations from a re-analysis of the deposited data

Results flagged for a closer look

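Pde4d stood out by a test of the difference between its responses to ISO in the presence and in the absence of lipase inhibitors. The log2 fold change was 2.77 without and 4.09 with the inhibitors, a difference of 1.31 (edgeR quasi-likelihood test of the interaction, adjusted p = 0.00501). This difference did not pass without replicate 2 (edgeR adjusted p = 0.0682) or without replicate 3 of each group (edgeR adjusted p = 0.218). The response was larger with the inhibitors in each of the 3 replicate numbers (log2 differences of 1.14, 1.19 and 1.65). These values divide the tested difference by number, in the same libraries, and are no further support for it. How many of all tested genes had the same sign in every number was not counted. A larger response in each number was also seen for Pde10a (0.69, 0.83 and 0.69) and Pde7a (0.67, 0.34 and 0.38). The differences of these genes did not pass in the main fit. Whether a number marks the same experiment in every group is not known. The larger response is not particular to Pde4d. Crem, the gene most similar to it in pattern, also passed the interaction test (log2 difference 0.93, edgeR adjusted p = 0.00495).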

How the results depend on the processing

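Alternatives were DESeq2 with its own size factors, those size factors within edgeR, library totals without TMM, no filter on low counts, a replicate block, only the 2 groups compared, and 15 fits that left out libraries. For the 9 tested genes in 5 contrasts these gave 936 values, of which 891 kept the direction and the side of the threshold, 18 lost a call, 2 gained a call and 25 changed sign.

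The number of the 9 genes lower in ISO than in DMSO was 0 rather than 1 with a change of at least 1 log2 unit, with the DESeq2 size factors in edgeR and with only the 2 groups compared, where Pde7a lost its call (-0.40, edgeR adjusted p = 0.0505, and -0.41, edgeR adjusted p = 0.084). It was 0 to 1 when libraries were left out, and so was the number with a larger response under inhibitors. Those higher numbered 5 to 6 in ISO against DMSO, 4 to 6 in Lip+ISO against Lip and 2 to 3 in Lip+ISO against ISO when libraries were left out. Sign changes were of small values that passed no test. Under library totals Pde7a was at -0.06 in Lip+ISO against Lip and Pde4d at 0.01 in Lip against DMSO, and under both uses of the DESeq2 size factors Pde3b was at 0.01 in Lip+ISO against ISO. When libraries were left out, the values ran from -0.01 to 0.47 for Pde4a in ISO against DMSO, from -0.03 to 0.13 for Pde7a in Lip+ISO against Lip, from -0.22 to 0.57 for Pde3a, -0.71 to 0.06 for Pde4b, -0.14 to 0.08 for Pde4d and -0.12 to 0.17 for Pde8a in Lip against DMSO, from -0.15 to 0.14 for Pde3b and -0.33 to 0.00 for Pde4a in Lip+ISO against ISO, and from -0.36 to 0.09 for Pde7b in the interaction. The cause of these changes was not tested.

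The sources used here do not say that a replicate number marks the same experiment in every group. Their deviations from the group means correlated at 0.037 to 0.369 over 18 pairs, 17 of them over 0.1, and each of the 12 libraries correlated best with its own number, a hint from the data. With the replicate block, Pde4b was lower in Lip+ISO than in ISO (-0.94, edgeR adjusted p = 0.0171), which made 1 of the 9 genes lower there, and Pde10a passed the interaction (0.75, edgeR adjusted p = 0.0456), which made 2 genes with a larger response. The block changed no other call of the 9 genes. Over all genes it gave 2552 higher in ISO against DMSO, 6 higher and 21 lower in Lip against DMSO, 1149 higher and 1458 lower in Lip+ISO against ISO, and 427 and 471 in the interaction.

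DESeq2 gave 22 higher and 35 lower of all genes in Lip against DMSO, 905 higher in Lip+ISO against ISO, and 338 and 241 in the interaction. Without a filter 3 were higher and 11 lower in Lip against DMSO. With only the 2 groups compared, 2 were higher in Lip against DMSO, and 349 were higher and 395 lower in Lip+ISO against ISO. Without libraries the ranges were 882 to 1819 higher and 834 to 2089 lower in ISO against DMSO, 930 to 1533 and 1162 to 2165 in Lip+ISO against Lip, 0 to 4 and 0 to 11 in Lip against DMSO, 167 to 605 and 212 to 601 in Lip+ISO against ISO, and 6 to 177 and 9 to 151 in the interaction, with fewer samples in each such fit. Without length scaling the PDE4 share was 5.56% in DMSO, 21.5% in ISO, 6.63% in Lip and 37.3% in Lip+ISO, and with the transcript span the PDE3 share was 89.5%, 86.7%, 85.8% and 81.0%. Depth limits Pde4c, whose counts of at most 8 per library allow no test.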
